A study of Mus musculus with 32 samples.

Results

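The imprinted growth genes described here were H19, Igf2, Dlk1, Meg3, Peg3, Cdkn1c, Grb10, Mest, Plagl1 and Ndn, 10 genes named by symbol and matched by Ensembl identifier to 48576 identifiers in the gene-level FPKM files (fragments scaled to transcript length and to the mapped fragments of a library). All 10 were found, and all 10 passed a mean of at least 1 FPKM in every comparison. Levels were measured by RNA-seq in forebrain (Fb) and midbrain (Mb) tissue of E9.5 mouse embryos of the B6C3F1 background, in 32 libraries. Each tissue had 6 WT, 4 TKO_Ex, 3 DKO_Ex and 3 DKO_CD libraries.

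WT embryos came from WT matings and carried no mutated allele. TKO_Ex is the Cdh6.8.11 triple knockout with exencephaly, an open cranial neural tube. DKO_Ex is labelled as a Cdh8.11 double knockout with exencephaly. DKO_CD is labelled as a Cdh6.8 double knockout with a cranial defect, while the study's text describes its non-exencephalic double mutants as Cdh8/11. The mutants came from matings of triple heterozygotes, and their alleles are small CRISPR/Cas9 deletions in the exon with the start codon, all derived from 1 founder, so the mutant lineage and the mutations cannot be told apart against WT. In 12 double-knockout files the column heading names the other double-knockout group than the record that lists the file. The headings were followed, and under the records the values of DKO_Ex and DKO_CD exchange names.

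Imprinted genes are expressed mainly from the copy inherited from 1 parent, and several of them act on fetal growth. In general, paternally expressed genes such as Igf2, Dlk1, Peg3 and Mest promote growth, and maternally expressed genes such as H19, Cdkn1c and Grb10 restrain it. Many lie in clusters that share a control region, so a noncoding RNA and a growth gene can be neighbours, as with H19 and Igf2 or Meg3 and Dlk1. FPKM per gene sums both parental copies, so the parental origin of these RNAs was not measured.

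The libraries held about 1943260 to 3236820 fragments (median 2602643), as estimated from the steps between low FPKM values. In Mb every TKO_Ex library was estimated to be shallower than every WT library. Every DKO_Ex Mb library was deeper than every WT and every DKO_CD Mb library. Depth and group therefore cannot be told apart in those Mb comparisons, and the part of depth in their values was not tested. DKO_CD Mb lay within the WT depth range, and in Fb the depths of each mutant group overlapped those of WT. The 10 Fb markers summed to 161 to 308 FPKM in Fb tissue against 1.66 to 29.5 FPKM in Mb tissue, and Mb markers to 65.4 to 280 FPKM in Mb against 25.3 to 65.5 FPKM in Fb. In the targeted genes the deletions need not remove the transcript. Cdh6 in Mb lay between 0.345 and 0.388 FPKM for 3 of the 4 TKO_Ex samples, whereas the library labelled TKO_Ex replicate 3 had 3.10 FPKM, inside the 1.04 to 3.55 FPKM of WT. The Fb library labelled TKO_Ex replicate 3 likewise had 3.74 FPKM of Cdh6, inside the WT Fb range. In DKO_CD Mb, Cdh6 was at 1.76, 2.11 and 1.29 FPKM, and in DKO_Ex Mb at 3.12, 2.47 and 1.86 FPKM, all inside the WT range, so under either grouping Cdh6 in the libraries labelled Cdh6.8 was not as low as in those 3 TKO_Ex samples. The Mb and the Fb library labelled TKO_Ex replicate 3 were each left out singly. The number of members past the threshold was then the same in each TKO_Ex comparison. A fit without both was not run, so comparisons that use both tissues still held the other of these libraries.

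The 10 members spanned a wide range of abundance. In WT Mb the order by mean level in FPKM was H19 (521), Mest (461), Grb10 (186), Igf2 (154), Cdkn1c (57.5), Meg3 (50.6), Peg3 (33.0), Ndn (30.1), Plagl1 (19.7) and Dlk1 (11.9). Between neighbours in that order, the 6 WT libraries overlapped except between Mest and Grb10, between Igf2 and Cdkn1c and between Meg3 and Peg3. In WT Fb the order was Mest (705), H19 (690), Dlk1 (308), Grb10 (194), Igf2 (186), Meg3 (159), Cdkn1c (45.8), Peg3 (31.1), Plagl1 (28.5) and Ndn (23.8). There the neighbours were apart between H19 and Dlk1, between Dlk1 and Grb10, between Meg3 and Cdkn1c and, by a narrow gap, between Cdkn1c and Peg3. Dlk1 was thus the lowest of the 10 in WT Mb and the third highest in WT Fb. The coefficient of variation over the 6 WT libraries had a median over the members of 14.4% in Mb and 14.5% in Fb, and was as low as 5.40% for Mest in Fb and as high as 28.5% for Dlk1 in Mb.

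**Figure D1:**
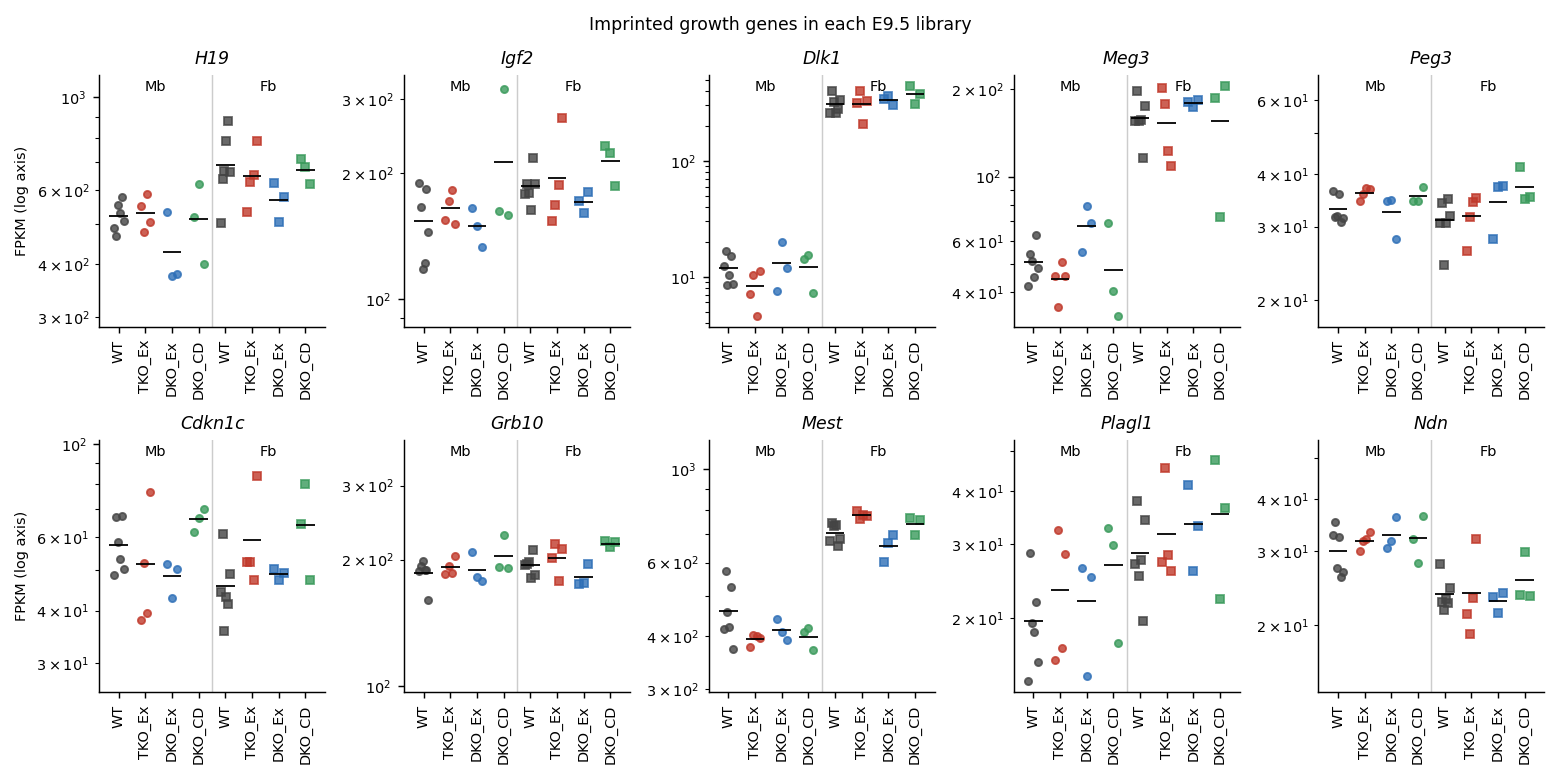
Level of each of the 10 genes in FPKM (log axis, a scale of its own in each panel) in every library, circles for Mb and squares for Fb, with a black line at each group mean (n = 6 WT, 4 TKO_Ex, 3 DKO_Ex, 3 DKO_CD per tissue). Dlk1 spanned 4.62 to 19.9 FPKM over 16 Mb points, far below the 207 to 442 FPKM of the 16 Fb points, while Grb10 and Peg3 covered overlapping ranges in both tissues.

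The first comparison asked which members differ between Mb and Fb in WT embryos. Dlk1, Meg3 and Mest were lower in Mb, and none of the 10 was higher by the test, limma on log2(FPKM + 1) with Benjamini-Hochberg adjustment over all genes. Among all 13344 genes tested 8.26% were called, and 3.6% were lower in Mb. The median log2 fold change of the 10 members was -0.34, against -0.0033 over all genes. Because these are bulk samples, fewer cells of a type and less RNA per cell cannot be told apart. The labels do not say whether libraries of a group come from separate embryos, so the p-values measure only the spread between these libraries.

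Among the ligands and surface proteins, Dlk1 had the widest difference of the 10. Dlk1 encodes a transmembrane protein with EGF repeats that is related to the Notch ligands and is paternally expressed. In WT Mb it ranged from 8.47 to 16.7 FPKM with a median of 11.4, and in WT Fb from 257 to 397 FPKM with a median of 301. The lowest Fb library was far above the highest Mb library, and the mean was 25.8 times higher in Fb. The log2 fold change, Mb minus Fb, was -4.60 ± 0.17 (SE, n = 6 and 6, adjusted p = 1.05e-09), and Dlk1 was at position 8 by size among the 480 genes lower in Mb. The level in Mb was low but counted: taken over the longest annotated transcript, about 42 to 284 fragments stood behind it per Mb library, against about 1958 to 5304 per Fb library. WT Mb replicate 5, whose mean midbrain marker level was the lowest in the group (2.27 against up to 4.51 on the log2 scale), had 15.1 FPKM of Dlk1, inside the range of the other WT Mb libraries. Its mean forebrain marker level was the highest of WT Mb, 1.20 against 0.208 to 0.786. Over all Mb libraries, DKO_Ex replicate 2 had the highest forebrain level (1.44) and the most Dlk1 (19.9 FPKM). DKO_CD replicate 2 had a low one (0.292) with 15.3 FPKM of Dlk1. The part of forebrain tissue in the Mb level of Dlk1 was not tested.

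Igf2, the fetal growth factor that signals through the insulin-like growth factor receptor, ranged from 118 to 189 FPKM (median 155) in WT Mb and from 164 to 217 FPKM (median 184) in WT Fb. The groups overlapped, and its log2 fold change of -0.29 ± 0.12 did not pass (adjusted p = 0.189).

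Of the noncoding RNAs, Meg3 was lower in Mb and H19 did not pass the test. Meg3 is the maternally expressed long noncoding RNA downstream of Dlk1. It ranged from 42.0 to 62.8 FPKM (median 49.8) in WT Mb and from 115 to 197 FPKM (median 156) in WT Fb, with no overlap. Its log2 fold change was -1.63 ± 0.12 (adjusted p = 1.76e-06), a mean 3.15 times higher in Fb. The 2 promoters of this pair are shown because these genes were the members with the widest tissue differences. Each stretch is the 250 bases before the RefSeq start of the gene on the plus strand of GRCm38.p6, chr12:109452573-109452822 for Dlk1 and chr12:109540746-109540995 for Meg3, and capitals mark matches to TGACGTCA, the cyclic AMP response element, or to TATAAA, the TATA box, searched on both strands.
Dlk1: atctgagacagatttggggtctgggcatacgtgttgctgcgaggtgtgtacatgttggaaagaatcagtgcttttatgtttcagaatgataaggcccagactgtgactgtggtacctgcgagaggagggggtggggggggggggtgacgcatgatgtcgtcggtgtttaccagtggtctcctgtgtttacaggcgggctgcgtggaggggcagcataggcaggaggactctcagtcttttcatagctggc
Meg3: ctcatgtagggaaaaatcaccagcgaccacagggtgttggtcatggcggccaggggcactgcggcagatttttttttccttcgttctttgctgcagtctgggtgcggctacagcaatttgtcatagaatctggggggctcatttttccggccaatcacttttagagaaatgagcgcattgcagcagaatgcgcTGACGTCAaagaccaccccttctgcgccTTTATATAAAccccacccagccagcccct
The Meg3 window held TGACGTCA starting 57 bases before the start and TATAAA on the plus strand starting 25 bases before it, overlapped by a match on the other strand that starts 29 bases before it. Neither set of letters was in the Dlk1 window. Of 32851 such windows over all genes, 1.55% held TGACGTCA and 12.4% held TATAAA. The windows held 8 CG pairs for Dlk1 and 10 for Meg3, against a median of 6 over all windows. These matches are a description of the letters, and 8 of the 10 members had a window in the table.

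H19, the abundant maternally expressed noncoding RNA next to Igf2, ranged from 466 to 580 FPKM (median 518) in WT Mb and from 501 to 880 FPKM (median 666) in WT Fb. Its log2 fold change was -0.39 ± 0.11 (adjusted p = 0.0558). With the replicate number as a block, which assumes that a number marks an embryo, limma gave H19 an adjusted p of 0.0294. The groups overlapped through WT Fb replicate 1, at 501 FPKM, and without that library H19 passed at an adjusted p of 0.00704, with Ndn as the fifth gene called.

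The growth inhibitors did not pass. Cdkn1c, a cyclin-dependent kinase inhibitor, ranged from 48.7 to 67.4 FPKM (median 55.8) in WT Mb and from 35.9 to 60.8 FPKM (median 43.7) in WT Fb (log2 fold change 0.33 ± 0.12, adjusted p = 0.140). Grb10, an adaptor that dampens insulin and insulin-like growth factor receptor signalling, ranged from 160 to 198 FPKM in WT Mb and from 181 to 211 FPKM in WT Fb (log2 fold change -0.058 ± 0.064, adjusted p = 0.682). An antisense lincRNA over the Cdkn1c gene, Gm44732, was at 36.6 FPKM in WT Mb and 32.4 FPKM in WT Fb. The libraries were directional, which separates the strands.

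The zinc finger genes Peg3 and Plagl1 did not pass either. Peg3 ranged from 30.8 to 36.4 FPKM (median 31.7) in WT Mb and from 24.3 to 34.9 FPKM (median 31.2) in WT Fb, with a log2 fold change of 0.089 ± 0.091 (adjusted p = 0.652). Plagl1, a transcription factor that acts on other imprinted genes, ranged from 14.1 to 28.5 FPKM  in WT Mb and from 19.7 to 38.0 FPKM  in WT Fb, with a log2 fold change of -0.52 ± 0.18 (adjusted p = 0.0999).

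Mest, a paternally expressed gene for a protein of the hydrolase fold, ranged from 373 to 574 FPKM (median 440) in WT Mb and from 657 to 747 FPKM (median 708) in WT Fb. The groups did not overlap, and the log2 fold change was -0.63 ± 0.095 (adjusted p = 0.000722), a mean 1.53 times higher in Fb. Ndn, a MAGE family gene of neurons in the cluster linked to Prader-Willi syndrome, ranged from 26.0 to 35.3 FPKM (median 29.9) in WT Mb and from 21.8 to 28.0 FPKM (median 23.0) in WT Fb. Its sign was the opposite, with a log2 fold change of 0.32 ± 0.095 that did not pass (adjusted p = 0.0546) and passed in 5 of 19 alternatives. Over WT libraries, the groups did not overlap for 3 members (Dlk1, Meg3 and Mest, all lower in Mb). Of all genes, 2.23% were lower in Mb without overlap, and 746 of 13344 did not overlap in either direction.

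**Figure D2:**
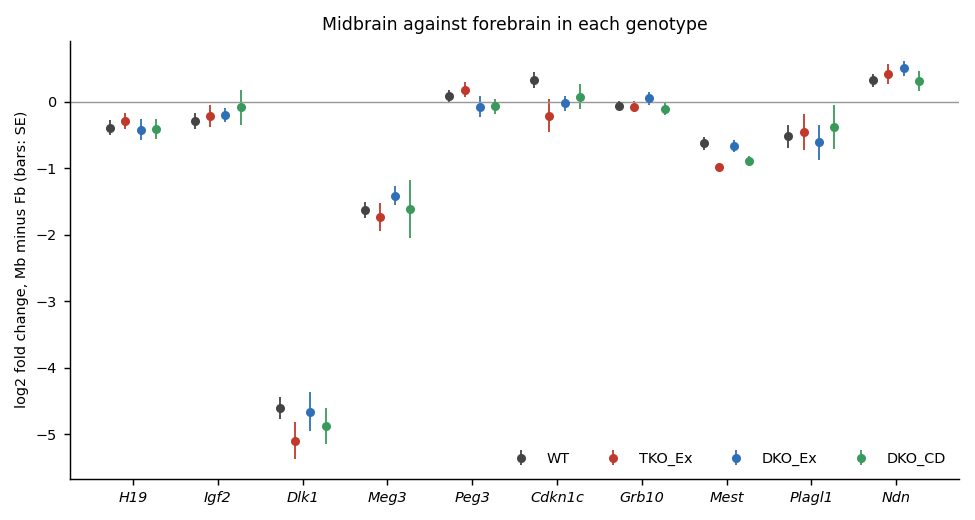
Log2 fold change, Mb minus Fb, of the 10 genes in WT, TKO_Ex, DKO_Ex and DKO_CD, on log2(FPKM + 1), with bars for the SE. In WT the values were -4.60 for Dlk1, -1.63 for Meg3 and -0.63 for Mest, and the other 7 genes lay between -0.52 and 0.33.

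The same tissue comparison within each mutant group repeated these measurements in other libraries. In TKO_Ex, Dlk1 (-5.10 ± 0.27, adjusted p = 2.79e-05), Meg3 (-1.73 ± 0.21, adjusted p = 0.00238) and Mest (-0.98 ± 0.064, adjusted p = 6.49e-05) were lower in Mb, 3 of 10 members where 2.89% of all genes were called and 1.35% were lower. In DKO_Ex the same 3 members passed, with Dlk1 at -4.66 ± 0.30 (adjusted p = 0.000752), Meg3 at -1.41 ± 0.14 (adjusted p = 0.00342) and Mest at -0.66 ± 0.092 (adjusted p = 0.0134), where 2.58% of all genes were called and 0.924% were lower. In DKO_CD, where 0.507% were called and 0.283% were lower, Dlk1 (-4.88 ± 0.27, adjusted p = 0.000709) and Mest (-0.89 ± 0.077, adjusted p = 0.00576) passed, while Meg3 at -1.62 ± 0.44 did not (adjusted p = 0.257). Mest lost its call in DKO_Ex without Mb replicate 2, without Fb replicate 2 or without Fb replicate 3, and in both double knockouts without the mean-variance trend.

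Across all genotypes, Dlk1 and Mest separated the 16 Mb from the 16 Fb libraries completely, as did 0.58% of all genes lower in Mb. Dlk1 had a highest Mb level of 19.9 FPKM and a lowest Fb level of 207 FPKM, and for Mest these were 574 and 602 FPKM. For Meg3 the highest Mb library, DKO_Ex replicate 2 at 79.2 FPKM, was above only 1 Fb library, DKO_CD replicate 2 at 72.4 FPKM. In DKO_CD the 3 Fb libraries of Meg3 were at 187, 72.4 and 205 FPKM and the 3 Mb libraries at 69.2, 40.2 and 33.1 FPKM. Without Fb replicate 2 the Meg3 difference in DKO_CD was -2.09 (adjusted p = 0.0657). In DKO_Ex, Ndn was at 30.6, 31.8 and 36.2 FPKM in Mb and at 23.3, 21.4 and 23.8 FPKM in Fb, without overlap (12.6% of all genes were higher in Mb without overlap there), and its log2 fold change of 0.50 ± 0.12 did not pass (adjusted p = 0.0873). Without Fb replicate 4, at 32.2 FPKM, Ndn also passed in TKO_Ex, at 0.57.

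Dlk1 and Meg3 lie 77.7 kb apart on chromosome 12, in an imprinted cluster that ends with Dio3. Of the genes from Dlk1 to Dio3 with at least 1 FPKM in both WT tissues, Dlk1, Meg3, Gm26906, Rian and Mirg, 5 of 5 were lower in WT Mb, whereas limma called 0 of 5 such genes outside that stretch within the window shown. This window was chosen after its values were seen, so these counts are a description. The 5 genes are not separate observations: Dlk1 and Meg3 are the members that led to the window, and Gm26906 lies within the Meg3 gene on the other strand. Over all genes tested, 3.6% were lower in WT Mb. The maternally expressed noncoding RNA Rian averaged 66.5 ± 19.1 FPKM in WT Mb and 196 ± 29.6 FPKM in WT Fb (SD, n = 6 each), a log2 fold change of -1.57 ± 0.16 (adjusted p = 2.23e-05). Mirg, the microRNA host RNA further downstream, averaged 12.9 ± 5.30 FPKM against 43.3 ± 7.13 FPKM (log2 fold change -1.76 ± 0.23, adjusted p = 0.000241). The paternally expressed Rtl1, a gene derived from a retrotransposon, averaged 0.319 ± 0.155 FPKM against 1.76 ± 0.262 FPKM. It passed the filter on low values only through Fb, where it was higher, so its difference is given as levels alone.

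At the ends of the cluster, Dio3, a deiodinase gene, was at 0.790 FPKM in WT Mb and 1.93 FPKM in WT Fb, and also passed the filter only through Fb. Begain, 421 kb before Dlk1, averaged 3.01 FPKM against 2.81 FPKM, and Ppp2r5c, 994 kb after the Dlk1 start, averaged 19.6 FPKM against 18.03 FPKM. Library by library, after the group means were taken out, Meg3 went with Rian (r = 0.77 over 32 libraries) more closely than with Dlk1 (r = 0.40), as a description across libraries that share their depth. The antisense RNA Gm26906, which overlaps the end of Meg3, was at 2.72 FPKM in WT Mb and 7.94 FPKM in WT Fb.

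**Figure D3:**
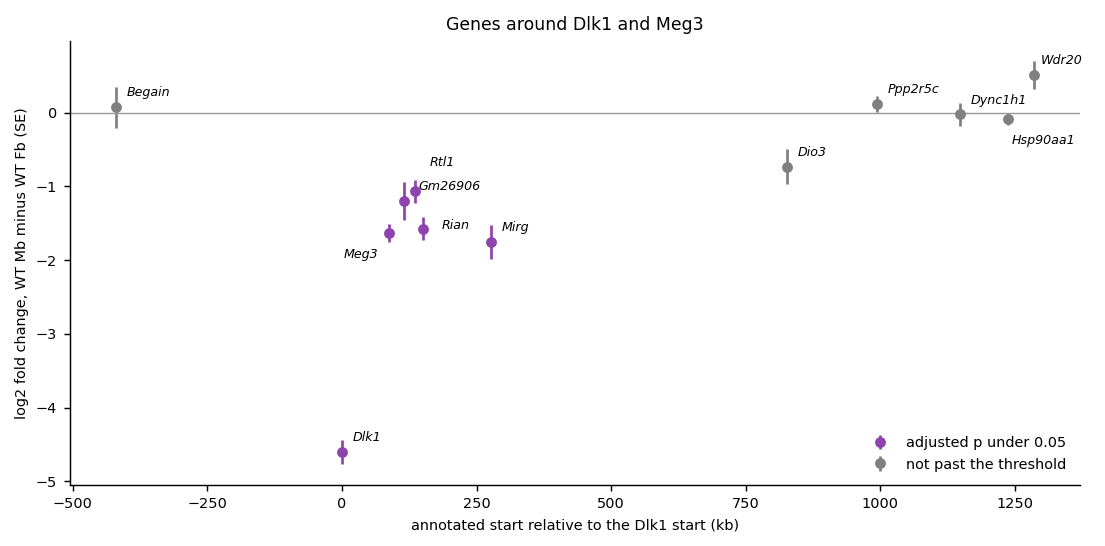
Log2 fold change, WT Mb minus WT Fb (bars for the SE, n = 6 and 6), of the genes tested around Dlk1 on chromosome 12, against the distance of their annotated start from the Dlk1 start in kb. Dlk1, Meg3, Gm26906, Rian and Mirg lay between -4.60 and -1.20 and were called, and the genes outside the cluster were not. Rtl1 and Dio3 are drawn too, but were under 1 FPKM in Mb and passed the filter only through Fb.

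The neighbour of Mest was also lower in WT Mb. Copg2, a coat protein gene on the opposite strand that overlaps Mest by 912 bases, averaged 173 ± 6.17 FPKM in WT Mb and 276 ± 12.6 FPKM in WT Fb (log2 fold change -0.67 ± 0.052, adjusted p = 1.89e-06). Between libraries within groups the 2 genes had r = 0.23. For H19 and Igf2, which lie 72.6 kb apart on chromosome 7, the same measure was r = 0.51, the highest of any pair among the 10 members.

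Other imprinted genes were read from lists, where 8.26% of all genes were called between WT Mb and Fb and 3.6% were lower in Mb. Of the other maternally expressed genes, 3 of 10 tested were lower in WT Mb (Rian, Mirg and Copg2) and 0 higher, with a list median of -0.21 against -0.0033 over all genes. Of the other paternally expressed genes, 3 of 21 tested were lower and 2 higher, with a median of -0.059. The lower ones were Rtl1, which passed the filter only through Fb, Nnat (-0.97 ± 0.11, adjusted p = 7.24e-05), a neuronal proteolipid gene, and Airn (-0.86 ± 0.24, adjusted p = 0.0456), the noncoding RNA antisense to Igf2r. The higher ones were Mkrn3 (0.65 ± 0.18, adjusted p = 0.0397) and Peg13 (0.42 ± 0.10, adjusted p = 0.0189).

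In the insulin-like growth factor pathway, 4 of 13 tested genes were lower and 1 higher in WT Mb, against 8.26% of all genes called and 3.6% lower. The lower ones were binding proteins, which hold the growth factor in the extracellular space: Igfbp3 (-0.92 ± 0.13), Igfbp2 (-0.82 ± 0.095), Igfbp4 (-0.48 ± 0.096) and Igfbp5 (-0.45 ± 0.10), with adjusted p from 7.70e-05 to 0.0152. The gene counted as higher was Pappa, a protease that cleaves binding proteins, at 2.14 FPKM in WT Mb and 0.842 FPKM in WT Fb. It passed the filter only through Mb, where it was higher. The receptors Igf1r (10.2 FPKM in WT Mb, 9.80 in WT Fb) and Igf2r (9.88 and 10.7 FPKM) did not pass. Of 5 cell cycle inhibitors tested, the member Cdkn1c among them, 1 was higher in Mb, Cdkn1a (1.31 ± 0.30, adjusted p = 0.0158).

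Cell type markers also differed between the WT tissues, where 8.26% of all genes were called and 3.6% were lower in Mb. Cranial mesenchyme markers were lower in Mb in 9 of 17 tested and higher in 2, surface ectoderm markers lower in 7 of 8, and neuron markers higher in 8 of 8. Of these, Alx1 (mesenchyme), Grhl2 (ectoderm), Mapt and Dcx (neurons) passed the filter only through the tissue where they were higher. The summed levels in WT were 483 to 784 FPKM in Mb and 494 to 576 FPKM in Fb for mesenchyme, 31.5 to 57.0 and 91.7 to 161 FPKM for surface ectoderm, and 48.5 to 119 and 13.0 to 24.3 FPKM for neurons. A sum follows the most abundant markers. As a mean log2 level, mesenchyme was at 2.88 to 3.53 in WT Mb and at 3.61 to 3.78 in WT Fb, without overlap. None of these markers was at 0 in every library of a group. Endothelium and primitive red cell markers had 0 of 10 called each by limma (2 and 0 at an unadjusted p under 0.05). The part of these cell types in the tissue differences of Dlk1, Meg3 and Mest was not tested.

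The comparisons of each mutant group with WT asked whether the cadherin mutations change these genes. No member was called in any of the 6 comparisons by limma, in 60 tests. In Mb the background was 0.0898% of all genes called in TKO_Ex, 0.0903% in DKO_Ex and 0.0375% in DKO_CD, and in Fb it was 0.0603%, 0.0759% and 0.0378%. At an unadjusted p under 0.05 there were 5 of the 60 tests, 8.33%. Over all genes that share was 8.38% in TKO_Ex, 5.46% in DKO_Ex and 6.69% in DKO_CD for Mb, and 8.66%, 7.01% and 8.44% for Fb, so the members' share was near the background. All log2 fold changes lay between -0.50 and 0.46, with SEs from 0.060 to 0.29, and the lowest adjusted p was 0.523. The 3 comparisons within a tissue share the same WT libraries. These misses do not show that the levels were equal.

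The median of the 10 members was 0.19 in DKO_CD Fb, against 0.042 over all genes, and 0.10 in DKO_CD Mb, against 0.017. Cell type markers had medians farther from those of all genes there, with none called. The cranial mesenchyme markers had a median of 0.59 in DKO_CD Mb (8 of 16 at an unadjusted p under 0.05). In DKO_CD Fb the neuron markers had a median of 0.59 and the mesenchyme markers of -0.24. By mean log2 level, of the DKO_CD Fb libraries only replicate 2, at 3.16, fell below the WT Fb range (3.61 to 3.78) for mesenchyme. The other DKO_CD Fb libraries, at 3.84 and 3.83, exceeded every WT library. Mesenchyme markers ranged from 3.45 to 3.64 in TKO_Ex Fb and from 3.33 to 3.54 in DKO_Ex Fb. Their median log2 fold changes there were -0.34 and -0.32, with 7 of 17 at an unadjusted p under 0.05 in each and none called. Within DKO_CD Fb, neuron markers rose above WT Fb (1.15 to 1.62) only in replicate 2, at 2.01, with the others at 1.43 and 1.59. TKO_Ex Fb replicate 4 was also above WT Fb for neuron markers, at 2.19. The median log2 fold change of the neuron markers was 0.34 in TKO_Ex Fb and -0.029 in DKO_Ex Fb. Without DKO_CD Fb replicate 2, the log2 fold changes of the members in DKO_CD Fb ranged from -0.031 (H19) to 0.56 (Plagl1), with 0 called. How far the DKO_CD Fb marker medians rest on that library was not tested. The part of these cell types in the members' values was not tested either. In the other 4 comparisons the members' median was between -0.0014 and 0.036. None of the genes of the other imprinted, insulin-like growth factor and cell cycle inhibitor lists was called either against WT.

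**Figure D4:**
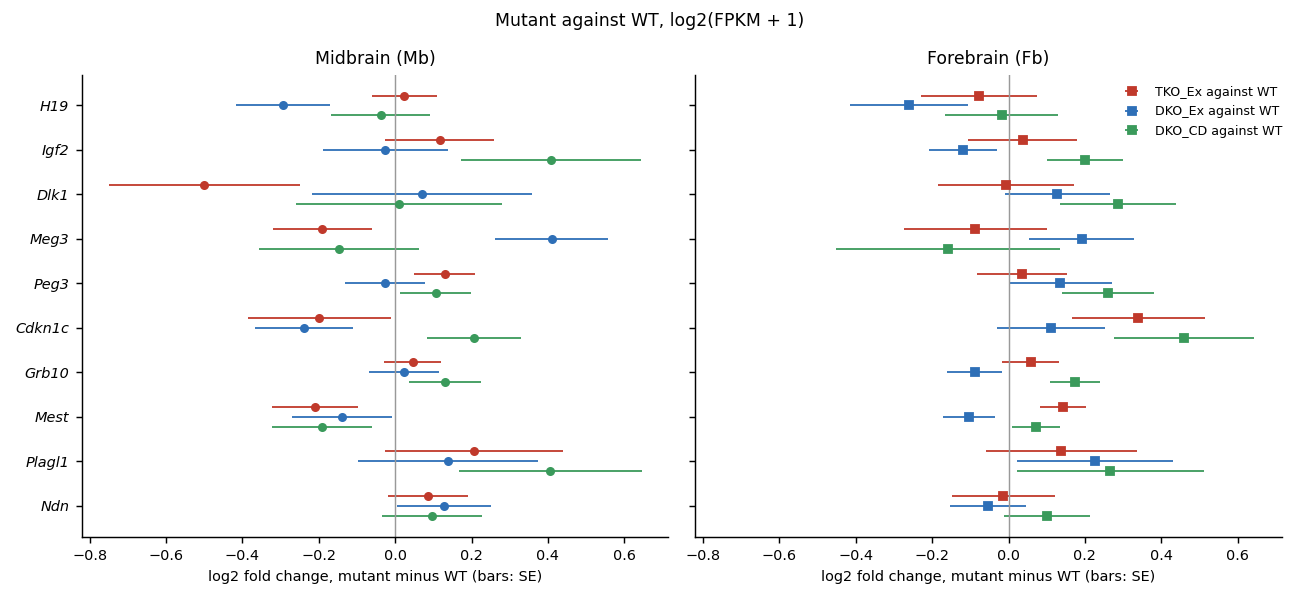
Log2 fold change, mutant minus WT, of the 10 genes in Mb (circles) and Fb (squares) for TKO_Ex, DKO_Ex and DKO_CD, with bars for the SE. The values ranged from -0.50 (Dlk1 in TKO_Ex Mb) to 0.46 (Cdkn1c in DKO_CD Fb), and none passed the threshold.

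The widest value was Dlk1 in TKO_Ex Mb. The 4 libraries were at 7.12, 10.3, 4.62 and 11.2 FPKM, against 8.47 to 16.7 FPKM in WT, and 2 of them were below the WT range. Their mean log2 forebrain marker levels were, in the same order, 0.300, 0.696, 0.408 and 0.656, against 0.208 to 1.20 in WT Mb. The part of forebrain tissue in the Dlk1 value was not tested. The log2 fold change was -0.50 ± 0.25 (adjusted p = 0.628), and without the library labelled replicate 3 it was -0.28 (adjusted p = 0.843). In TKO_Ex Fb, Dlk1 was at 313, 401, 207 and 326 FPKM, and the log2 fold change was -0.0060 ± 0.18, or 0.18 without the library labelled replicate 3. Both of the lowest Dlk1 levels in TKO_Ex were in the libraries labelled replicate 3.

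In DKO_Ex Mb, Meg3 was at 54.9, 79.2 and 69.1 FPKM against 42.0 to 62.8 FPKM in WT. Of the 3 libraries 2 were above the WT range, with a log2 fold change of 0.41 ± 0.15 (adjusted p = 0.830). H19 was there at 533, 376 and 379 FPKM against 466 to 580 FPKM, with 2 libraries below the WT range and a log2 fold change of -0.29 ± 0.12 (adjusted p = 0.901). Primitive red cell markers summed to 6556 to 9842 FPKM in DKO_Ex Mb, within the 5228 to 23428 FPKM of WT Mb, and the median log2 fold change of these 10 markers was -0.66, with 0 called, against 0.028 over all genes. Their part in the H19 value was not tested.

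In TKO_Ex Fb, Mest was at 798, 762, 778 and 774 FPKM, all above the WT range of 657 to 747 FPKM. It was the 1 member without overlap there, where 1.42% of all genes were higher without overlap. The log2 fold change was small, 0.14 ± 0.060 (adjusted p = 0.531). In TKO_Ex Mb, Mest was at 378, 402, 401 and 397 FPKM, within the WT range of 373 to 574 FPKM, and its log2 fold change was -0.21 ± 0.11.

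In DKO_CD Fb, 2 members were above every WT library, Grb10 and Peg3, where 2.92% of all genes were higher without overlap. Grb10 was at 221, 214 and 220 FPKM against 181 to 211 FPKM (0.17 ± 0.065, adjusted p = 0.523). Peg3 was at 41.7, 34.9 and 35.3 FPKM against 24.3 to 34.9 FPKM, with its lowest library only just above the highest WT library (0.26 ± 0.12, adjusted p = 0.596). Cdkn1c was at 64.4, 80.1 and 47.2 FPKM against 35.9 to 60.8 FPKM, so 1 library was in the WT range (0.46 ± 0.18, adjusted p = 0.553), and without replicate 2, the highest of the 3, it was 0.28. Under the records' grouping these 3 values belong to DKO_Ex.

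Igf2 in DKO_CD Mb was set apart by 1 library. The 3 libraries were at 162, 316 and 159 FPKM against 118 to 189 FPKM in WT, and the log2 fold change was 0.41 ± 0.24 (adjusted p = 0.824). Plagl1 there was at 32.7, 29.9 and 17.4 FPKM against 14.1 to 28.5 FPKM (0.41 ± 0.24, adjusted p = 0.826), with 2 libraries above the WT range. The mean log2 level of the mesenchyme markers was 3.38 to 3.94 in these DKO_CD Mb libraries, against 2.88 to 3.53 in WT Mb. Ndn lay between 28.1 and 36.5 FPKM in all 10 mutant Mb libraries, against 26.0 to 35.3 FPKM in WT.

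The double-knockout groups differ in label by both genotype (Cdh8.11 against Cdh6.8) and phenotype (exencephaly against cranial defect), which cannot be told apart, and were compared with each other. Limma called no member in Mb, where 0.045% of all genes were called, and none in Fb, where 0.00753% were called. At an unadjusted p under 0.05 there was 1 of 10 members in Mb, against 6.48% of all genes, and there were 3 of 10 in Fb, against 5.54%. In Mb, Cdkn1c was lower in every DKO_Ex library (51.8, 42.9 and 50.3 FPKM) than in every DKO_CD library (61.6, 66.6 and 70.0 FPKM), as were 5.69% of all genes, with a log2 fold change of -0.45 ± 0.11 (adjusted p = 0.742). In Fb, Grb10 was at 175, 176 and 196 FPKM in DKO_Ex and at 221, 214 and 220 FPKM in DKO_CD (-0.26 ± 0.082, adjusted p = 0.880). Igf2 was at 172, 160 and 180 FPKM in DKO_Ex Fb and at 232, 223 and 186 FPKM in DKO_CD Fb (-0.32 ± 0.11, adjusted p = 0.880). For both the groups did not overlap, which held for 11.1% of all genes, and under the records all of these signs turn.

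Whether a mutant effect differed between the tissues was tested as the difference of the differences. Limma called 0 members for TKO_Ex (0.0149% of all genes called), 0 for DKO_Ex (0.0%) and 0 for DKO_CD (0.00746%). At an unadjusted p under 0.05 there were 1, 0 and 0 of 10 members, against 6.5%, 3.88% and 4.83% of all genes. The member with the lowest p was Mest in TKO_Ex, at -0.35 ± 0.13 (adjusted p = 0.730), with its values against WT of -0.21 in Mb and 0.14 in Fb.

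Finally, the members were set against the level of other cell types in the same libraries. For each tissue the group means were taken out over the 16 libraries, and the relation with the mean log2 level of 19 cranial mesenchyme markers was tested by two-sided permutation of libraries within groups. Of 20 relations (10 members in 2 tissues), 0 passed after Benjamini-Hochberg adjustment, and 1 had a permutation p under 0.05. That was Grb10 in Fb (Pearson r = 0.30, permutation p = 0.0493, adjusted p = 0.263, and Spearman rho = 0.43, permutation p = 0.0776, adjusted p = 0.266), with r = 0.41 without the 2 libraries farthest from the median. Igf2 in Mb had r = 0.59 (permutation p = 0.0790, adjusted p = 0.263) and rho = 0.56 (permutation p = 0.0799, adjusted p = 0.266), and r = 0.23 without the 2 farthest libraries, DKO_CD replicate 2 and WT replicate 4, so it rests on those.

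With endothelium markers, 0 of 20 passed, and Meg3 in Fb had the highest r, 0.86 (permutation p = 0.0129, adjusted p = 0.257), with rho = 0.84 (permutation p = 0.0110, adjusted p = 0.219). Without DKO_CD replicate 2 and TKO_Ex replicate 4 it was 0.54, and within the 6 WT libraries it was 0.028. In these Fb libraries Meg3 was at 72.4 and 109 FPKM and the mean endothelium level at 2.12 and 2.28 on the log2 scale, the lowest of the Fb libraries, while their surface ectoderm level was the highest, at 4.02 and 4.19. Rian, by contrast, was at 170 and 198 FPKM in them, inside the WT Fb range of 151 to 240 FPKM.

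With primitive red cell markers, H19 had r = 0.57 in Mb (permutation p = 0.0292, adjusted p = 0.292; rho = 0.68, permutation p = 0.00671, adjusted p = 0.134) and r = 0.70 in Fb (permutation p = 0.0152, adjusted p = 0.292; rho = 0.61, permutation adjusted p = 0.272). Without the 2 farthest libraries r was 0.62 in Mb and 0.46 in Fb. Within the WT libraries r was 0.83 in Mb and 0.95 in Fb, and within the mutant libraries 0.57 and 0.22. With neuron markers, Ndn in Fb had r = 0.82 (permutation p = 0.0140, adjusted p = 0.171) and rho = 0.56 (permutation p = 0.0626, adjusted p = 0.299), and r = 0.33 without the 2 farthest libraries. Cdkn1c had r = 0.61 in Mb (permutation p = 0.0171, adjusted p = 0.171) and rho = 0.54 (permutation p = 0.0571, adjusted p = 0.299), and r = 0.52 without the 2 farthest. In Fb, Cdkn1c had r = 0.66 (permutation p = 0.0457, adjusted p = 0.197) and rho = 0.47 (permutation p = 0.119, adjusted p = 0.398), but r = 0.038 without the 2 farthest, so it rests on those. At a permutation p under 0.05 there were 5 of 20 relations with neuron markers, Meg3 and Peg3 in Mb among them, 2 of 20 with red cell markers and 2 of 20 with endothelium markers. No relation with either of these lists passed the adjustment over its 20 relations.

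**Figure D5:**
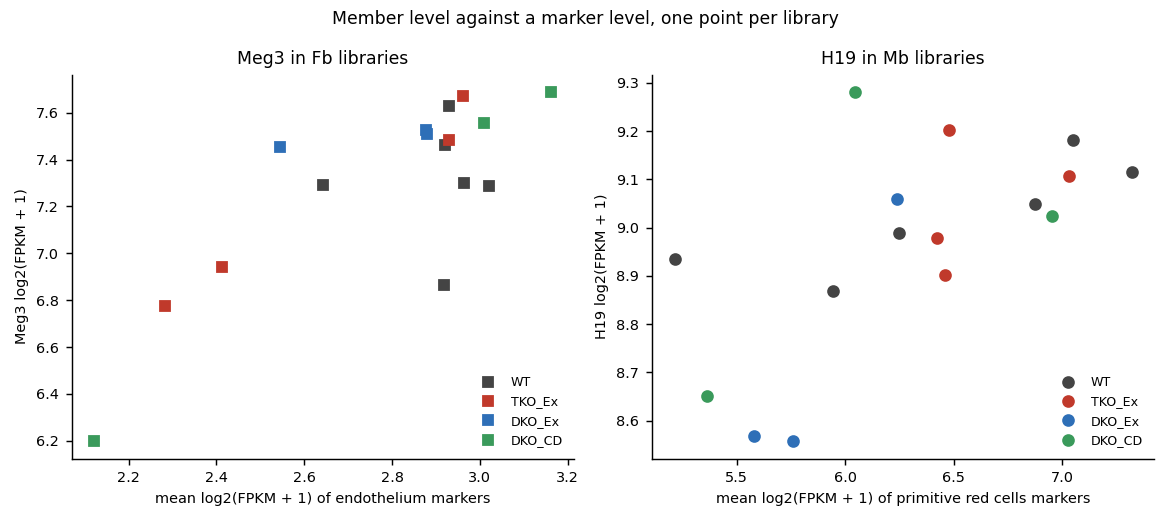
Level of Meg3 in the 16 Fb libraries against the mean level of 10 endothelium markers (left) and of H19 in the 16 Mb libraries against that of 10 primitive red cell markers (right), on log2(FPKM + 1), 1 point per library coloured by genotype. The lowest Meg3 point is DKO_CD replicate 2, at 72.4 FPKM and an endothelium level of 2.12, and with the group means taken out r was 0.86 on the left and 0.57 on the right.

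Over all 32 libraries with the group means taken out, each member was compared with 9152 genes of at least 5 FPKM, and the closest are given as a description. H19 was most like Fth1 (r = 0.81), the ferritin heavy chain gene, then Ehd1 (r = 0.72) and the embryonic globin Hbb-y (r = 0.69). Igf2 was most like Fstl1 (r = 0.74) and Gpc3 (r = 0.73), a glypican gene, with Serf1 as the third (r = 0.66). Meg3 was most like Tmem63b (r = 0.82) and Srrm2 (r = 0.80), with the endothelial cadherin Cdh5 as the third (r = 0.77). Cdkn1c was most like Ckb (r = 0.77) and Ypel1 (r = 0.77), with the neuronal RNA-binding protein gene Elavl3 as the third (r = 0.75). For the other members only the first gene is named: Maged1 for Mest (r = 0.78), Ewsr1 for Plagl1 (r = 0.80), Ube2l3 for Peg3 (r = 0.72), Kctd1 for Grb10 (r = 0.69), Igbp1 for Ndn (r = 0.72) and 1700020I14Rik for Dlk1 (r = 0.71). Hbb-y, Cdh5 and Elavl3 belong to the marker lists used above, so their likeness is not separate from those relations.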

How the data were processed

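RNA from Fb and Mb of E9.5 embryos was sequenced from directional libraries. The authors used TopHat2 for alignment (GRCm38) and Cufflinks for gene-level values, and deposited them as FPKM, normalized to transcript length and mapped fragments. Versions are not given in the sources used here. The authors' own tests used HTSeq counts and DESeq2, not used here. Libraries were grouped by column heading. Of 48576 identifiers, 48132 matched GENCODE M21, and repeated identifiers were summed.

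Values were tested as log2(FPKM + 1) with limma 3.58.1 (R 4.3.3, trend) on genes of mean at least 1 FPKM, with Benjamini-Hochberg adjusted p under 0.05, each comparison fitted alone. The pseudocount understates changes of low genes. Fold multiples are ratios of FPKM means. The marker relations used 100000 permutations (Python 3.11.15, NumPy 2.4.6). The depth estimate used 769 long genes whose low values lay within 0.1 fragment of whole multiples in 86.0% to 94.9% of cases. The fits were tested on simulated data.

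All members are described. Of the other imprinted, growth factor and inhibitor lists the called genes are named (at most 5 a list), and the closest 3 genes per member by likeness were computed. Members and lists were chosen with earlier results of these data known, and the within-mutant tissue comparisons and the neuron and red cell markers after seeing the data. Alternatives were other pseudocounts, no filter, scaling, quantile normalization, no trend, 1 fit of all groups, grouping by record, a replicate block and leaving out each library.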

Additional observations from a re-analysis of the deposited data

Results flagged for a closer look

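In groups of 4 or 6 libraries, 3 of the 40 sets of values (10 members in 4 groups) had 1 library farther from the rest than Dixon's 95% limit allows, where chance gives about 1 in 20. Cdkn1c in TKO_Ex Fb replicate 4 was at 83.8 FPKM, with the next library at 52.3 FPKM. Plagl1 in TKO_Ex Fb replicate 2 was at 45.6 FPKM, with the next at 28.3 FPKM. Grb10 in WT Mb replicate 6 was at 160 FPKM, with the next at 188 FPKM.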

How the results depend on the processing

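In the 6 comparisons with WT, the 2 between double knockouts and the 3 of tissue effects, the number of members called by limma was 0 under every alternative run, leaving out each library included. In WT Mb against Fb, it was 3 to 4 under the other alternatives and 3 to 5 when each library was left out, with Dlk1, Meg3 and Mest called in all 19 alternatives. Within the mutants, leaving out a library gave 3 to 4 members in TKO_Ex, 2 to 3 in DKO_Ex and 2 in DKO_CD, and no trend gave 1 in DKO_CD. Grouping by record exchanges the 3 of DKO_Ex and the 2 of DKO_CD. Of 2790 member values under an alternative, 2712 kept their side and moved by less than the replicate spread, 12 passed anew, 6 no longer passed, 60 moved further, and 0 called values changed sign. The cause was not tested. Counts over all genes moved more: 12 genes in TKO_Ex Mb became 0 to 16, and 52 without WT Mb replicate 1. 1102 genes in WT Mb against Fb became 870 to 1317.

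Same-numbered Mb and Fb libraries correlated at 0.026 to 0.094 in WT, 0.0076 to 0.12 in TKO_Ex, 0.076 to 0.12 in DKO_Ex and 0.029 to 0.14 in DKO_CD. Not every pair was over 0.1, and the main fits took the libraries as independent. As a hint that a number may mark an embryo, all of these correlations were above 0. Of these libraries, 83.3%, 75%, 100% and 66.7% went best with their own number, and both TKO_Ex replicate 3 libraries had Cdh6 in the WT range. Between different numbers the highest r was 0.087 in WT, 0.053 in TKO_Ex, 0.015 in DKO_Ex and 0.055 in DKO_CD. In DKO_Ex every same-numbered pair was above it. Whether a number marks an embryo is not labelled, so the results with and without the block are both given. With the replicate block, the members called in WT Mb against Fb were 4 (H19 added, adjusted p = 0.0294) and the genes 893. In TKO_Ex, DKO_Ex and DKO_CD the members called were 3, 3 and 2 and the genes 278, 249 and 40. Against WT the block matched mutant and WT libraries by number alone, so from different embryos, and 0% of them went best with their own number. It left 0 members and 0 to 4 genes there, which cannot speak for a pairing. The depth of about 1943260 to 3236820 fragments per library and 3 or 4 libraries per mutant group limit the size of difference that could pass.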
